A study of Mus musculus with 4 samples.

Results

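The genes described here encode 10 heat shock proteins and chaperones of the mouse: Hspa1a, Hspa1b, Hspa5, Hspa8, Hspb1, Hsph1, Hsp90aa1, Hsp90ab1, Dnajb1 and Dnaja1. They were taken as every probe set annotated to exactly 1 of these symbols, which gave 25 of the 45037 non-control probe sets of the array, for 9 of the 10 genes. No probe set of the annotation used here named Hsp90ab1, so it was not analysed here. Expression had been measured in basal cells, the progenitor layer of the epidermis, sorted from the skin of mice at embryonic day 16. The cells called Ezh2cKO came from mice with a conditional knockout of Ezh2, the catalytic subunit of the Polycomb complex PRC2, which methylates histone H3 at silenced genes, and the others from WT mice. All mice were of a mixed strain, C57 and CD1. The labels give neither the Cre driver of the knockout nor whether a sample pooled several embryos. There were 2 arrays per genotype, numbered 1 and 2 in each, and values are Affymetrix MAS5 signals on a linear scale. The labels do not say that samples of a genotype came from separate animals, so a p-value covers no more than the spread of these arrays, which may be technical.

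Chaperones bind unfolded proteins and help them fold. In the cytosol, Hsp70 proteins (Hspa1a, Hspa1b, Hspa8) work with J-domain partners (Dnaja1, Dnajb1), which stimulate their ATPase, and with the exchange factor Hsph1, which releases the nucleotide. Hsp90 proteins (Hsp90aa1) take over clients such as kinases and steroid receptors, the small heat shock protein Hspb1 holds unfolded proteins in a soluble state, and Hspa5, also called BiP, is the Hsp70 of the endoplasmic reticulum (ER). Heat shock factor 1 switches on the inducible genes, among them Hspa1a and Hspa1b, by binding inverted repeats of nGAAn called heat shock elements. Hspa5 is instead a classical target of the unfolded protein response through ER stress elements. Heat shock genes and immediate early genes can also be induced while a tissue is dissociated into single cells.

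Promoter windows of RefSeq (build GRCm38.p6, from 250 bases before to 50 bases from the annotated start) were given for 7 of the 10 genes. The heat shock element of 3 units was searched as GAA, NN, TTC, NN and GAA joined without a gap, or as TTC, NN, GAA, NN and TTC, which covers both strands, and was found in 1 of these 7 genes (Hsph1) and in 0.662% of the 27025 genes with a window. A shorter element of 2 units, GAANNTTC or TTCNNGAA, which lies within the longer one, was added after the windows had been seen. It was found in 5 of the 7 genes (Dnaja1, Hspa1a, Hspa1b, Hspb1 and Hsph1) and in 17.0% of all genes with a window. The 7 genes had 1 to 3 windows each. The ER stress element, searched on both strands as CCAAT and CCACG with 9 bases of any kind between them, was found in 1 of the 7 (Hspa5) and in 0.137% of all genes with a window. These matches are descriptions of letters, not of binding.

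The windows of Hspa1a and Hspa1b are shown because the windows of these neighbouring genes are almost the same. The windows of Hspa5 and Hsph1 are shown because each holds an element that few promoters have. Capitals mark the matches named above. The Hspa1a window lies at chr17:34972107-34972406, the Hspa1b window at chr17:34959189-34959488, the Hspa5 window at chr2:34771840-34772139 and the more upstream Hsph1 window at chr5:149636287-149636586. Hspa5 is on the plus strand and the others are on the minus strand.
Hspa1a: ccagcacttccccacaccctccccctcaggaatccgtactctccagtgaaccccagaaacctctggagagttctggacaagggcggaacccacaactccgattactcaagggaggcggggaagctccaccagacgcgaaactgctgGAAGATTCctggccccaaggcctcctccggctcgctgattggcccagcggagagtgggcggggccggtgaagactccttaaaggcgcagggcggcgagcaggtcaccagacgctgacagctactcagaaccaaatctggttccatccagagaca
Hspa1b: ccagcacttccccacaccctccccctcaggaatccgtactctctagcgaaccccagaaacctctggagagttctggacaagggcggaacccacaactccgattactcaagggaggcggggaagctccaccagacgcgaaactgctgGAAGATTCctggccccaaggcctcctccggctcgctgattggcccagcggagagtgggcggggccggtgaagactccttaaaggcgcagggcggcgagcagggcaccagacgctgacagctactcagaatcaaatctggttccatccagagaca
Hspa5: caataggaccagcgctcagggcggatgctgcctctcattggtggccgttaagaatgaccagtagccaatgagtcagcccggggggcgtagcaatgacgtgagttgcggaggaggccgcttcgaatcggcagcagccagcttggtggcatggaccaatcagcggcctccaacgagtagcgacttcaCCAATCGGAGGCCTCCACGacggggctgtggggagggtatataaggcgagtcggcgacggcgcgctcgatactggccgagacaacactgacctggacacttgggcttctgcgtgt
Hsph1: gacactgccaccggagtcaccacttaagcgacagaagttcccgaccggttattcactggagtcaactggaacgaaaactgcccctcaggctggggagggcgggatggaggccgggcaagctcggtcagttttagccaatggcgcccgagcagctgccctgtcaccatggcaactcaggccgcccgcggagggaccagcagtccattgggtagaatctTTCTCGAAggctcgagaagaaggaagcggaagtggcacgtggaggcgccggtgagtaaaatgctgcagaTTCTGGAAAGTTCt
The windows of Hspa1a and Hspa1b were identical at 296 of 300 positions (98.7%), and each held its match to GAANNTTC at 104 bases before the start. The genes encode nearly the same protein, so RNA of one may bind probes of the other, and the assignment of a signal to Hspa1a or Hspa1b is uncertain.

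Of the 25 probe sets, 23 passed the intensity filter, which kept probe sets with a mean signal of at least 73.2 (the upper 60%, 27022 in all). Both that failed it were probe sets of Hsp90aa1, with signals between 30.4 and 70.3 on all arrays. Ezh2, the targeted gene, had a signal of 661 and 1308 on the Ezh2cKO arrays, against 3336 and 3603 on the WT arrays. Defining markers of basal epidermis were bright on all arrays, with Krt14 at 16592 and 16408 in Ezh2cKO and at 15981 and 14501 in WT. Of the 6 markers Krt14 was separated upwards and Itga6 downwards, with Itga6 at 6327 and 9411 in Ezh2cKO and at 11908 and 10639 in WT (log2 difference -0.54, unadjusted limma p 0.0499). Markers of dermal fibroblasts were bright too, with a summed signal of 44938 and 55769 in Ezh2cKO and 47434 and 52219 in WT over 5 genes. Summed endothelial markers (5 genes) were lower on 1 array, Ezh2cKO replicate 1 (2761), than on Ezh2cKO replicate 2 (6856) and the WT arrays (5523 and 6340). In such a bulk sample, fewer cells of a type and less RNA per cell cannot be told apart. The arrays numbered 2 differed widely from those numbered 1: 30.8% of all kept probe sets passed a limma fit for number at an adjusted p under 0.05, while 0% passed the fit for genotype. The genotype fit had no term for the number, so the difference between the numbers counted as spread within a genotype. Where the numbers differed, this widened its intervals and raised its p-values, so the shares are not alike. A fit with the number as a block is given at the end. Even Ezh2 was not called in that genotype fit, with a log2 difference of -1.88 (unadjusted limma p 0.00193, adjusted p 0.99998). A missing genotype call therefore does not show that a gene was unchanged.

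**Figure D1:**
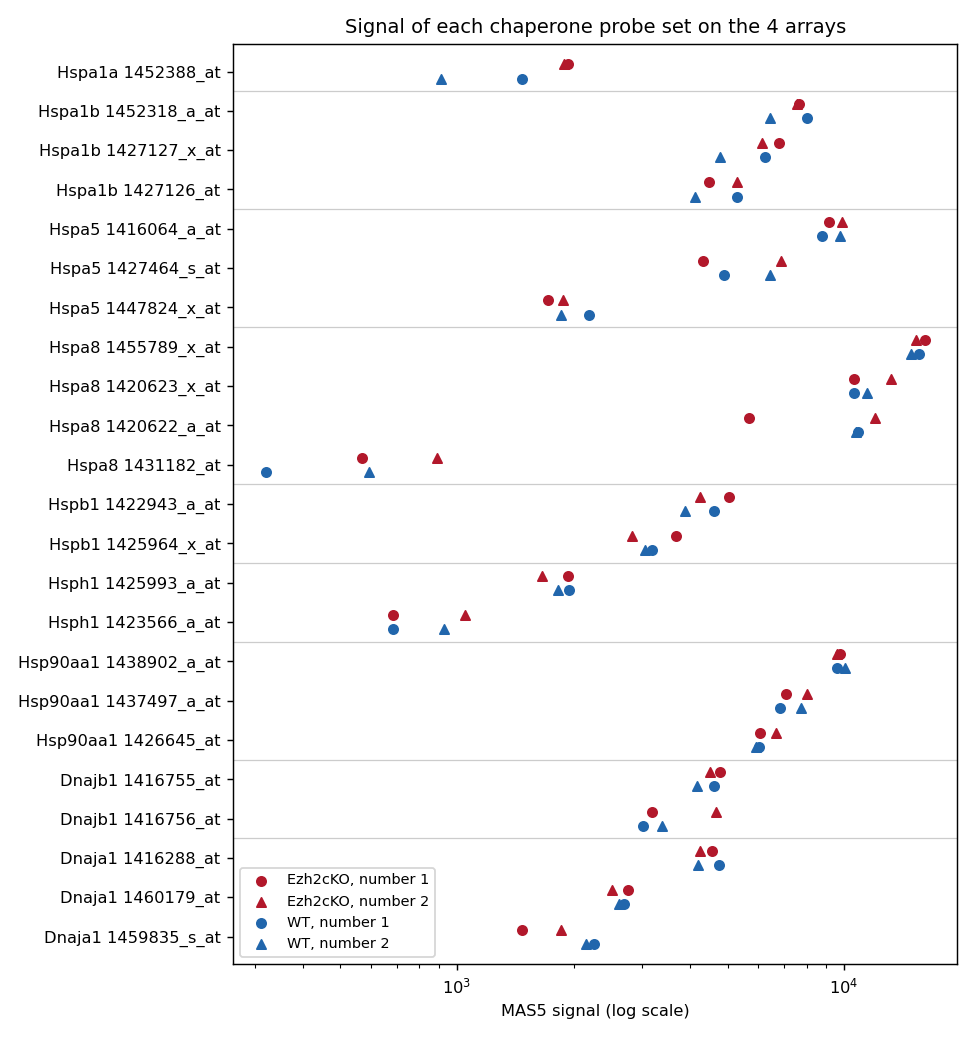
MAS5 signal (horizontal axis, log scale) of the 23 kept chaperone probe sets on each array, with Ezh2cKO in red above WT in blue, circles for number 1 and triangles for number 2. The genotypes overlapped for 20 of the 23 probe sets. Hspa1a was at 1934 and 1892 in Ezh2cKO and at 1470 and 911 in WT.

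The inducible Hsp70 gene Hspa1a was the only one of the 9 genes whose arrays were separated by genotype when each gene was read from its brightest probe set, where 8.52% of all kept genes were separated upwards. Its signal was 1934 and 1892 on the Ezh2cKO arrays, against 1470 and 911 on the WT arrays, a mean of 1913.0 ± 29.6 in Ezh2cKO and 1191 ± 395 in WT (SD, n = 2 each). Both Ezh2cKO arrays lay above both WT arrays, and the WT arrays differed more from each other than the Ezh2cKO arrays did. The log2 difference was 0.72 (SE 0.27, 95% confidence interval 0.05 to 1.38), or 1.64-fold, on the log2(signal + 16) scale used throughout. It was 1.31-fold within number 1 and 2.06-fold within number 2, from 1 array per genotype. The unadjusted limma p was 0.0395 and the adjusted p over all kept probe sets 0.99998. Without WT replicate 2 the log2 difference was 0.38, and without WT replicate 1 it was 1.06. Hspa1a has a single probe set here, so no second one could be set beside it. Of 5 markers of suprabasal epidermis, 3 (Lor, Flg and Ivl) were separated upwards, while Krt1 and Krt10 overlapped. Lor had 5629 and 3423 in Ezh2cKO, against 1753 and 2498 in WT (log2 difference 1.06). Flg had 169 and 184, against 23.8 and 29.5 (2.18), and Ivl 164 and 164, against 50.7 and 128 (0.88). The 5 markers summed to 39592 and 34842 in Ezh2cKO and 35044 and 29717 in WT, which overlapped. Krt1 and Krt10 made up most of these sums, so they say little of Lor, Flg and Ivl. The part of these 5 markers in the Hspa1a value was not tested.

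Hspa1b, the twin of Hspa1a, did not share this separation. Its brightest probe set (1452318_a_at) had 7653 and 7572 in Ezh2cKO, against 7997 and 6421 in WT, with a log2 difference of 0.09 (95% confidence interval -0.31 to 0.48). The second (1427127_x_at) had 6788 and 6128 in Ezh2cKO, against 6261 and 4780 in WT, with a log2 difference of 0.24. The third (1427126_at) had 4488 and 5296 in Ezh2cKO, against 5292 and 4121 in WT, with a log2 difference of 0.06. In all 3 the genotypes overlapped, with the signs within number 1 mixed and those within number 2 positive. WT replicate 2 was the lowest array in all 4 probe sets of Hspa1a and Hspa1b, as it was in 17% of all kept probe sets. That share was not taken at like brightness. Of kept genes with a mean signal of at least 1000, as Hspa1a and Hspa1b had, 55.7% were lower on both arrays numbered 2. Of all kept genes 37.4% were. Whether Hspa1a differed more than Hspa1b between the genotypes was not tested.

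By rank of likeness over the 4 arrays, the 5 genes whose centred log2 values lay nearest to those of Hspa1a were Dlx5, Extl1, F3, Krt80 and Hs3st2. Their Euclidean distances ran between 0.088 for Dlx5 and 0.21 for Hs3st2, out of 12694 genes compared. Dlx5, a homeobox factor, had signals of 237 and 222 in Ezh2cKO, against 186 and 102 in WT. Krt80, an epithelial keratin, had 731 and 645 in Ezh2cKO, against 502 and 365 in WT. Hspa1b lay at a distance of 0.68 and Hspb1 at 0.68, the nearest of the other chaperones, with 6.46% and 6.39% of the compared genes nearer to Hspa1a. With 4 arrays such distances only describe a pattern.

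Hspa8, the constitutive Hsp70 of the cytosol, showed no common direction over its 4 probe sets. The brightest (1455789_x_at) had 16130 and 15349 in Ezh2cKO, against 15578 and 14845 in WT (log2 difference 0.05, 95% confidence interval -0.24 to 0.34). A second (1420623_x_at) had 10610 and 13207 in Ezh2cKO, against 10629 and 11424 in WT. In another (1420622_a_at), Ezh2cKO replicate 1 stood apart at 5691, with Ezh2cKO replicate 2 at 11987 and the WT arrays at 10880 and 10709. Its log2 difference was -0.93 within number 1 and 0.16 within number 2. The dimmest (1431182_at) had 569 and 890 in Ezh2cKO, against 321 and 593 in WT. Its log2 difference was 0.69 (SE 0.38, unadjusted limma p 0.127), with 1.74-fold within number 1 and 1.49-fold within number 2, but the arrays of the genotypes overlapped. It was 0.26 without WT replicate 1, 0.37 without Ezh2cKO replicate 2, 1.00 without Ezh2cKO replicate 1 and 1.11 without WT replicate 2.

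Hspa5, the ER chaperone, had 9151 and 9863 in Ezh2cKO, against 8756 and 9749 in WT, by its brightest probe set (1416064_a_at), so that the genotypes overlapped. Its log2 difference was 0.04 (SE 0.13, 95% confidence interval -0.29 to 0.37), and its other probe sets gave -0.04 and -0.16. The Hsp110 gene Hsph1 had 1934 and 1661 in Ezh2cKO, against 1943 and 1825 in WT (1425993_a_at, log2 difference -0.07, 95% confidence interval -0.51 to 0.37). Its second probe set had 681 and 1047 in Ezh2cKO, against 682 and 927 in WT. The genotypes overlapped in all 5 probe sets of these genes.

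Hsp90aa1, the inducible cytosolic Hsp90, had 9785 and 9611 in Ezh2cKO, against 9588 and 10059 in WT, by its brightest probe set (1438902_a_at). The log2 difference was -0.02 (95% confidence interval -0.32 to 0.29). A dimmer kept probe set (1426645_at) was separated, with 6064 and 6678 in Ezh2cKO, against 6044 and 5918 in WT, but the difference was only log2 0.09 and Ezh2cKO replicate 1 lay almost level with WT replicate 1. Hspb1, the small heat shock protein also found in differentiating keratinocytes, had 5048 and 4254 in Ezh2cKO, against 4598 and 3889 in WT (1422943_a_at). Its log2 difference was 0.13 (95% confidence interval -0.30 to 0.56), and it was 0.13 within each number. By this probe set Ezh2cKO was the higher in both numbers, while the arrays numbered 2 lay below those numbered 1. The second Hspb1 probe set (1425964_x_at) had 3668 and 2830 in Ezh2cKO, against 3181 and 3054 in WT. Its log2 difference was 0.20 within number 1 and -0.11 within number 2, so the direction was not shared.

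The J-domain genes differed little by their brightest probe sets. Dnajb1, the main heat-inducible partner of Hsp70, had 4775 and 4515 in Ezh2cKO, against 4621 and 4160 in WT (1416755_at, log2 difference 0.08, 95% confidence interval -0.28 to 0.45). Its second probe set (1416756_at) had 3192 and 4676 in Ezh2cKO, against 3027 and 3378 in WT, with 1 high array, Ezh2cKO replicate 2. Dnaja1, a J-domain protein with a farnesylated end, had 4550 and 4234 in Ezh2cKO, against 4738 and 4202 in WT (1416288_at, log2 difference -0.02, 95% confidence interval -0.40 to 0.35). One of its other probe sets (1459835_s_at) was separated downwards, with 1470 and 1861 in Ezh2cKO, against 2255 and 2156 in WT. That difference was log2 -0.41 (SE 0.19, unadjusted limma p 0.0791, adjusted p 0.99998), and the remaining Dnaja1 probe set gave -0.02.

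Across the group, the genotype differences were small against the spread between arrays. Of the 9 genes, 1 was separated upwards and 0 downwards by the brightest probe set, where 8.52% of all 12703 kept genes were separated upwards and 8.39% downwards. Of the 23 kept probe sets, 2 were separated upwards and 1 downwards, against 7.22% and 7.21% of all kept probe sets, and these 3 belonged to 3 different genes. The median log2 difference of the 9 genes was 0.05, and that of all kept genes -0.0035. By the brightest probe set, Hspa1a, Hspa5, Hspa8, Hspb1 and Dnajb1 had a higher Ezh2cKO signal in each number and Hsph1 was lower. Of all kept genes 25.2% were higher within both and 25.6% lower. Other probe sets went the other way within number 1 for Hspa5 (log2 -0.17 and -0.34) and Hspa8 (-0.93). Within number 2 they did so for Hspb1 (-0.11) and Hsph1 (0.17). In 18 of the 23 probe sets the difference was smaller than log2 0.25 in size. None of the 23 passed limma's adjusted threshold of 0.05, where 0% of all kept probe sets did, and 1 of them (Hspa1a) had an unadjusted p under 0.05, as 94 of all kept probe sets (0.348%) did upwards and 16 (0.0592%) downwards. No member's brightest probe set changed the sign of its genotype difference under quantile normalization or a common median. An exact permutation test of 2 arrays against 2 cannot give a two-sided p below 0.333.

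**Figure D2:**
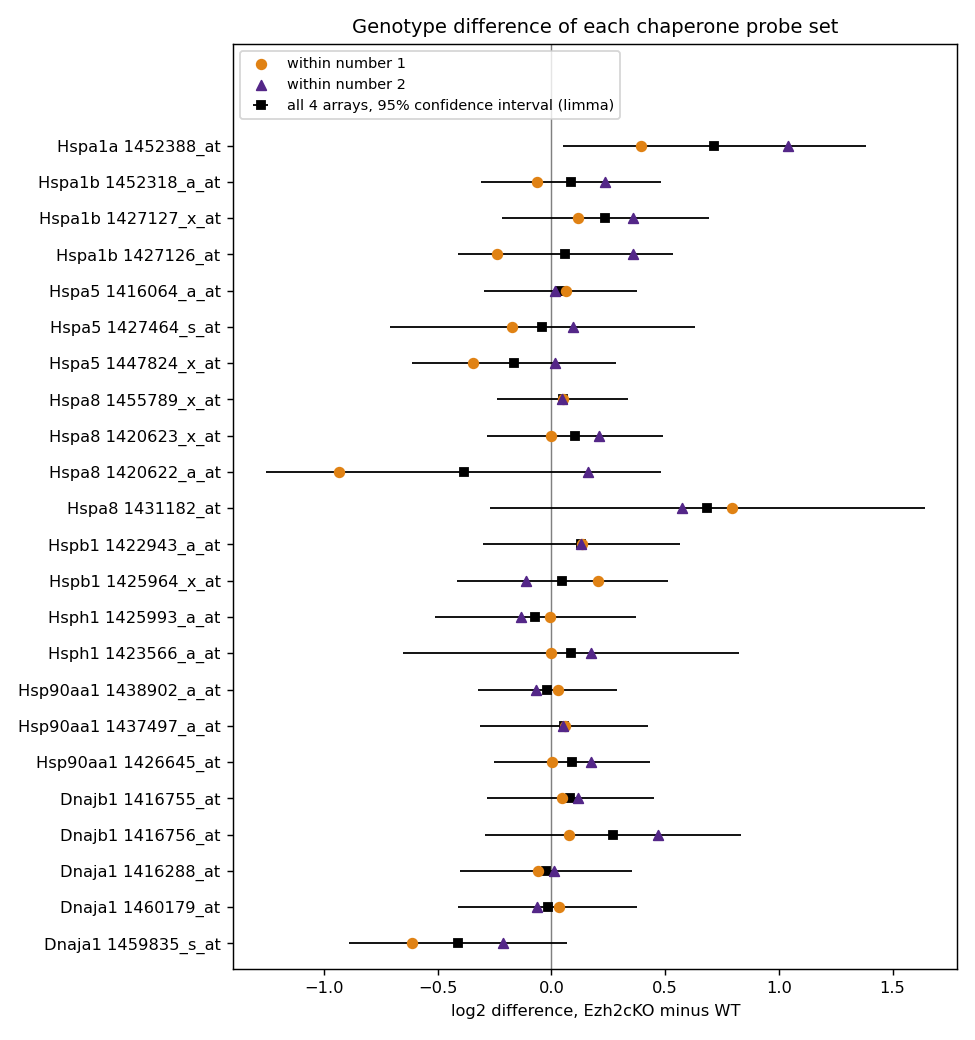
Log2 difference, Ezh2cKO minus WT, of the 23 kept chaperone probe sets. Black squares with bars are the limma estimate over all 4 arrays and its 95% confidence interval, orange circles the difference within number 1 and purple triangles that within number 2. The interval of Hspa1a ran between 0.05 and 1.38, and those of all other probe sets included 0. The fit had no term for the number, so the difference between the numbers widens these intervals.

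The same probe sets were set against the replicate number, with the arrays numbered 2 (1 per genotype) against those numbered 1. Hspa5 and Hsph1 each had 1 probe set that rose in number 2 by limma, at an adjusted p under 0.05, while their brightest probe sets did not pass. For Hspa5 (1427464_s_at) the signals were 6857 in Ezh2cKO and 6426 in WT of number 2, against 4332 in Ezh2cKO and 4882 in WT of number 1. That is a log2 difference of 0.53 (SE 0.089, limma adjusted p 0.00893). For Hsph1 (1423566_a_at) they were 1047 in Ezh2cKO and 927 in WT of number 2, against 681 in Ezh2cKO and 682 in WT of number 1, with a log2 difference of 0.52 (SE 0.12, limma adjusted p 0.0229). These 2 of 23 stand beside 21.4% of all kept probe sets that rose and 9.42% that fell in number 2. Both arrays numbered 2 lay above both numbered 1 in each case, as in 7 of the 23 probe sets (44% of all kept ones), while in 9 of the 23 both lay below (27.4% of all). With quantile normalization 12 lay above and 0 below (30% and 36.7% of all), and with a common median 2 above and 12 below (32.6% and 40% of all). Calls by limma numbered 5 higher and 0 lower with quantile normalization (10.8% and 9.64% of all), and 1 higher and 7 lower with a common median (16.1% and 20.7% of all).

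The size of both differences varied less than their calls. Scaling the arrays to a common median left Hspa5 at log2 0.35 (limma adjusted p 0.0254) and Hsph1 at 0.34 (limma adjusted p 0.0690). Without WT replicate 2 the log2 difference was 0.57 for Hspa5 (limma adjusted p 0.0528) and 0.61 for Hsph1 (limma adjusted p 0.0815). Without Ezh2cKO replicate 2 it was 0.48 for Hspa5 (limma adjusted p 0.0875) and 0.43 for Hsph1 (limma adjusted p 0.182). Leaving out either array numbered 1 kept both calls, with limma adjusted p-values of 0.00844 for Hspa5 and 0.0262 for Hsph1 without Ezh2cKO replicate 1, and of 0.00174 for Hspa5 and 0.0210 for Hsph1 without WT replicate 1. The brightest Hspa5 probe set had a log2 difference between the numbers of 0.13 (limma adjusted p 0.166) and that of Hsph1 one of -0.15 (limma adjusted p 0.270). Probe sets of these genes thus differed in direction or size on the same arrays.

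By their brightest probe sets, 6 of the 9 genes (Hspa1b, Hspa8, Hspb1, Hsph1, Dnajb1 and Dnaja1) were lower on both arrays numbered 2, and 1 (Hspa5) was higher, but under quantile normalization 0 were lower and 3 higher (44.2% and 22.2% of all kept genes), and under scaling to a common median 7 were lower and 0 higher (52.9% and 20.1% of all kept genes). Of all kept genes 37.4% were lower and 31.4% higher, and of the 4757 kept genes with a mean signal of at least 1000, as all 9 had, 55.7% were lower and 17.9% higher. The median of the 9 genes was -0.14 and that of these bright genes -0.16. The median over all kept probe sets was 0.12 with the authors' scaling, -0.04 with quantile normalization and -0.05 with a common median. The median of the 9 genes stood at -0.0038 with quantile normalization and at -0.32 with a common median, so no direction between the numbers is given for the group. By the brightest probe set 0 of the 9 were called by limma, 1 (Hspa5, higher) with quantile normalization and 5 (Hspa1b, Hspa8, Hspb1, Dnajb1 and Dnaja1, all lower) with a common median. Of all kept genes, 11.6% were called higher and 13.7% lower with the authors' scaling, 6.52% and 12.6% with quantile normalization and 7.01% and 28.9% with a common median.

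Hspb1 had 4254 in Ezh2cKO and 3889 in WT of number 2, against 5048 in Ezh2cKO and 4598 in WT of number 1. Its log2 difference of -0.24 (limma adjusted p 0.0849) was -0.12 with quantile normalization and -0.42 (limma adjusted p 0.0154) with a common median. Hspa1a had a log2 difference of -0.03 between the numbers within Ezh2cKO and of -0.68 within WT, and these 4 arrays leave no spread to test whether the genotypes differed in this. The dim Hspa8 probe set 1431182_at had log2 0.74 between the numbers (limma adjusted p 0.101), and it was called with genotype as a covariate (limma adjusted p 0.0102) and without Ezh2cKO replicate 1 (log2 difference 1.14, limma adjusted p 0.00661). The median of all kept probe sets with a mean signal between 500 and 1000 was -0.03.

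**Figure D3:**
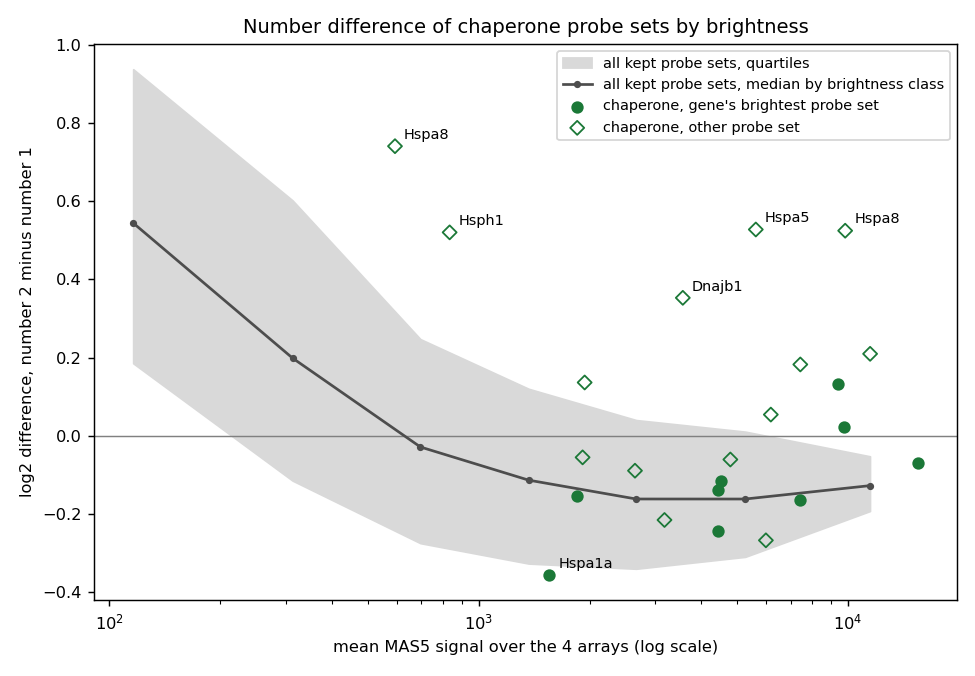
Log2 difference, number 2 minus number 1, of the 23 kept chaperone probe sets against their mean signal (log scale). Filled circles are the brightest probe set of a gene and open diamonds its other probe sets. The grey line and band are the median and quartiles of all kept probe sets in 7 brightness classes. The line falls to -0.16 for mean signals between 2000 and 8000. The open diamonds of Hspa5, Hspa8, Hsph1, Hsp90aa1, Dnajb1 and Dnaja1 lie above it. So does Hspa1b 1427126_at, while Hspa1b 1427127_x_at (-0.27) and Hspb1 1425964_x_at (-0.22) lie below.

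A sign of RNA quality moved with the number. The log2 ratio of the 3′ over the 5′ control probe set of Gapdh was -0.32 in Ezh2cKO and -0.25 in WT of number 2, against -0.0036 in Ezh2cKO and -0.096 in WT of number 1. For Actb it was 0.38 in Ezh2cKO and 0.45 in WT of number 2, against 0.64 in Ezh2cKO and 0.58 in WT of number 1. Both ratios were lower on both arrays numbered 2. Their part in the differences between probe sets of a chaperone gene was not tested.

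Further chaperone genes were read from lists of the folding machinery, again by the brightest kept probe set of a gene, and 0 genes of any list passed limma for genotype. Over all kept genes, 8.52% were separated upwards and 8.39% downwards. Of 9 other Hsp70 and Hsp110 genes, 2 were separated upwards and 0 downwards. Hspa4l, a relative of Hsph1, had 209 and 235 in Ezh2cKO, against 176 and 183 in WT, and Hspa2, known for its role in sperm formation, had 253 and 308 in Ezh2cKO, against 237 and 227 in WT. Hspa12b, known from endothelium, had 90.1 and 160 in Ezh2cKO, against 203 and 149 in WT, and was low on the array with the low endothelial markers. The part of those cells in this value was not tested. Of 6 other small heat shock proteins, 3 were separated upwards (Hspb8, Hspb3 and Hspb2) and 0 downwards. Hspb8, which works with the co-chaperone Bag3 in clearing proteins, had 1453 and 1091 in Ezh2cKO, against 1033 and 980 in WT, with a log2 difference of 0.32 (SE 0.22). Hspb3 had 72.4 and 137 in Ezh2cKO, against 45.9 and 71.7 in WT, signals so low that its difference is uncertain. Skeletal muscle markers, a tissue that expresses Hspb2 and Hspb3, summed to 591 and 707 in Ezh2cKO and 532 and 669 in WT over 5 genes, and their part was not tested.

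Of 40 other J-domain genes, 6 were separated upwards and 2 downwards, where 8.52% of all kept genes were separated upwards and 8.39% downwards. Dnajc12 had 628 and 527 in Ezh2cKO, against 503 and 435 in WT, and Dnaja4, an inducible relative of Dnaja1, had 316 and 354 in Ezh2cKO, against 259 and 288 in WT. Of 13 other Hsp90 genes and Hsp90 co-chaperones, 0 were separated upwards and 1 downwards, Fkbp5, a co-chaperone of steroid receptors, with 2726 and 2738 in Ezh2cKO, against 3148 and 2981 in WT. Fkbp4, its antagonist in receptor complexes, had 2894 and 1896 in Ezh2cKO, against 1976 and 1780 in WT, with 1 high array. Of 12 Hsp70 co-chaperones, 0 were separated upwards and 1 downwards, St13, which stabilises Hsp70 bound to ADP. It had 3028 and 2692 in Ezh2cKO, against 3277 and 3030 in WT. Of 16 chaperonin and prefoldin genes, which fold actin and tubulin or act in mitochondria, 0 were separated either way.

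Of 26 genes of ER chaperones and the unfolded protein response, 1 was separated upwards and 5 downwards, with a median log2 difference of -0.02, where 8.52% of all kept genes were separated upwards and 8.39% downwards. Herpud1, a protein of ER-associated degradation, was the lower with the largest moderated t, at 493 and 656 in Ezh2cKO, against 699 and 705 in WT. Sel1l, its partner in that pathway, had 1971 and 1963 in Ezh2cKO, against 1672 and 1935 in WT. Atf4, a transcription factor of the response, had 4137 and 4730 in Ezh2cKO, against 2953 and 4349 in WT, which overlapped. Of 13 other heat-inducible genes, 3 were separated upwards and 0 downwards, 2 of them (Hspb8 and Hspa4l) named above, and the median was 0.01. Of the 5 heat shock factors and their partners, 4 were on the array and only Hsbp1, a binding protein of heat shock factor 1, passed the filter. It had 3796 and 3345 in Ezh2cKO, against 4039 and 3639 in WT.

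Immediate early genes, which are induced within minutes of a stress, were read beside the chaperones. Of 12 measured, all 12 had a higher Ezh2cKO signal in each number, as 25.2% of all kept genes did, and 2 (Ier2 and Fos) were separated upwards, where 8.52% of all kept genes were. Their median log2 difference was 0.70, with 0 called by limma. It was 0.74 within number 1 and 0.57 within number 2. With an array left out the genotypes no longer hold the same numbers, so the difference between the numbers enters the value. The median was then 0.037 without WT replicate 1, 0.11 without Ezh2cKO replicate 2, 1.40 without Ezh2cKO replicate 1 and 1.56 without WT replicate 2. Ier2 had 6438 and 9456 in Ezh2cKO, against 4315 and 6187 in WT. The median of the 9 chaperones was 0.05. Between the numbers, the immediate early genes had a median of 1.55 and 8 of 12 rose by limma in number 2, the same 8 genes under the authors' scaling, quantile normalization and a common median. Of all kept genes 11.6%, 6.52% and 7.01% rose under these scalings. Their summed signal was 108866 in Ezh2cKO and 76632 in WT of number 2, against 58229 in Ezh2cKO and 34771 in WT of number 1. Atf3, a stress-induced transcription factor, had 6180 in Ezh2cKO and 3649 in WT of number 2, against 873 in Ezh2cKO and 528 in WT of number 1 (log2 difference 2.78, limma adjusted p 0.00294). Hspa1a, too, had a higher Ezh2cKO signal in each number (log2 difference 0.39 within number 1 and 1.04 within number 2). Its lowest signal was on WT replicate 2, where the summed immediate early genes were higher than on WT replicate 1. The part of tissue dissociation in these values was not tested.

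The lists of the folding machinery also differed between the numbers. All 12 Hsp70 co-chaperones had a lower signal in number 2 within both genotypes, as 42.5% of all kept genes did and 35.5% did upwards. Of the 4757 kept genes with a mean signal of at least 1000, 2882 were lower within both genotypes and 969 higher. By limma 5 of the 12 co-chaperones fell, 3 with quantile normalization and 10 with a common median. Of all kept genes 13.7%, 12.6% and 28.9% fell, shares not taken at like brightness. Bag5, a nucleotide exchange factor, had 574 in Ezh2cKO and 622 in WT of number 2, against 1177 in Ezh2cKO and 1112 in WT of number 1 (log2 difference -0.92, limma adjusted p 0.00427). Of 16 chaperonin and prefoldin genes 5 fell and 0 rose, with 4 falling under quantile normalization and 15 under a common median, among them Pfdn2, a prefoldin subunit, with 1303 in Ezh2cKO and 1400 in WT of number 2, against 2021 in Ezh2cKO and 2392 in WT of number 1. Of the 26 ER genes 5 rose and 0 fell, where 11.6% of all kept genes rose, and with a common median 3 rose and 1 fell, where 7.01% rose and 28.9% fell. Dnajb9, a J-domain partner of Hspa5 in the ER, had 2382 in Ezh2cKO and 2019 in WT of number 2, against 1251 in Ezh2cKO and 1046 in WT of number 1 (log2 difference 0.93, limma adjusted p 0.00598). Ddit3, a transcription factor of prolonged ER stress, had 574 in Ezh2cKO and 514 in WT of number 2, against 256 in Ezh2cKO and 303 in WT of number 1. The list medians between the numbers were -0.33 for the Hsp70 co-chaperones, -0.24 for the chaperonins and prefoldin and 0.08 for the ER genes, beside -0.16 for all bright genes. With quantile normalization they were -0.26, -0.13 and 0.15 in the same order, beside -0.11 for all kept genes. With a common median they were -0.51, -0.42 and -0.09, beside -0.21 for all kept genes, so the sign for the ER genes turned.

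**Figure D4:**
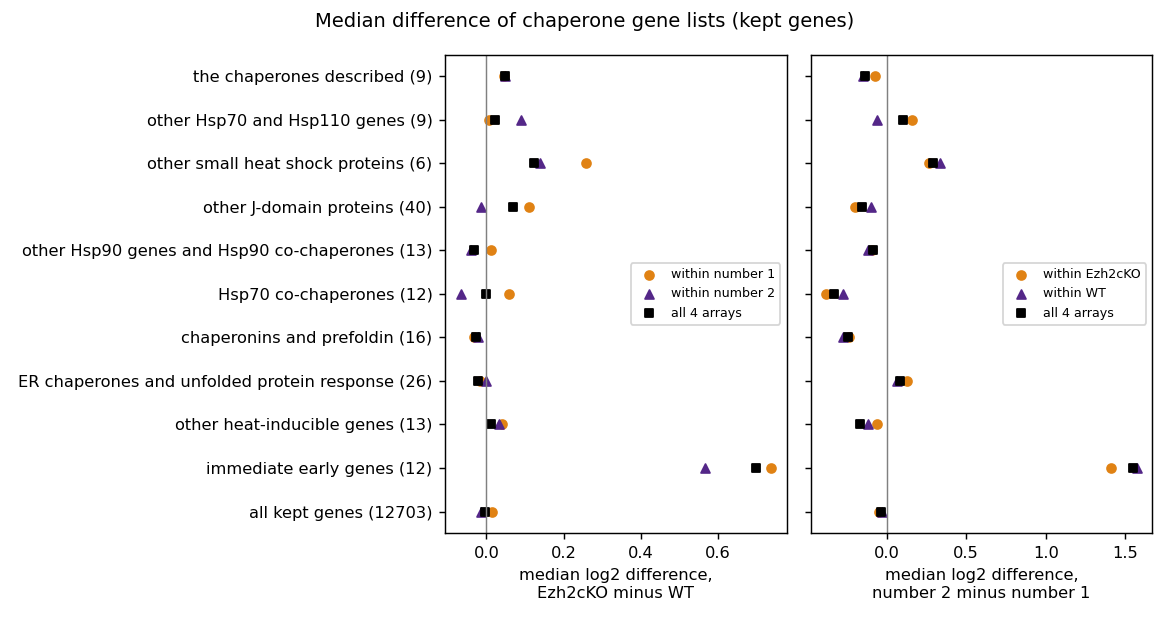
Median log2 difference of the chaperones described, of 9 lists of related genes and of all 12703 kept genes, with the number of kept genes in brackets. The left panel is Ezh2cKO minus WT, with orange circles within number 1 and purple triangles within number 2. The right panel is number 2 minus number 1, with orange circles within Ezh2cKO and purple triangles within WT. Black squares are all 4 arrays. The immediate early genes lie at 0.70 on the left and 1.55 on the right, while the chaperones lie at 0.05 and -0.14. On the left, the immediate early genes lie at 0.74 within number 1 and 0.57 within number 2. With an array left out, which makes the numbers unequal between the genotypes, the value of 0.70 ran between 0.037 and 1.56.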

How the data were processed

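Each sample was hybridised to 1 Affymetrix mouse array, per the labels. The authors deposited linear intensities, which the submitters' processing notes call MAS5 (version not given in the sources used here). Their mean with 2% trimmed from both tails is 500.0 on every array. Groups follow the sample titles. Of 45037 non-control probe sets, 34945 carry 1 gene symbol, 932 several and 9160 none in the platform annotation, and 34741 matched RefSeq (GRCm38.p6) by gene identifier. Detection calls were not used here. Values were transformed as log2(signal + 16) and the upper 60% of probe sets by mean signal kept. Genotypes, and separately replicate numbers, were tested in limma 3.58.1 (R 4.3.3) with an intensity trend and no block, with Benjamini-Hochberg adjustment over 27022 probe sets. A gene was read from its brightest kept probe set, and was separated when both arrays of a group lay on one side of both others. The fit was tested on simulated data with independent noise. That checks how planted differences are estimated, not how many real ones are called on these arrays. The number of arrays limits the precision. Genes, lists and tests were chosen with earlier results of these data known. The rule named all 10 chaperones, up to 3 genes of a list by moderated t for genotype and up to 2 for number, and the genes nearest by Euclidean distance to Hspa1a and to Hspa5 (for Hspa5 these were Fnbp1, Rspry1 and Jazf1, all with overlapping genotypes). Other settings tried were a pseudocount of 1 or 64, the upper 40% or all probe sets, quantile or common-median scaling, no trend, the other factor as a covariate, averaged probe sets, an adjusted p of 0.1 and each array left out.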

Additional observations from a re-analysis of the deposited data

How the results depend on the processing

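All values are log2 differences unless called counts. With an array left out, the genotypes no longer hold the same numbers, nor the numbers the same genotypes. Values and counts from those settings therefore mix genotype and number, which cannot be told apart there. Hspa1a stayed higher in Ezh2cKO under each setting, with 0.69 to 0.73 over those that kept all arrays and 0.38 to 1.06 when an array was left out. Genotype calls over all probe sets numbered 0, and 0 to 52 with an array left out (52 when WT replicate 2 was dropped, 27 when Ezh2cKO replicate 2 was and 2 when WT replicate 1 was). The numbers are shared only as numbers. With the number as a replicate block 6 probe sets were called by limma, 5 higher, with 0 of the 23 chaperone probe sets among them. The lowest limma p-values there were 0.00196 for Hspa8 1431182_at (adjusted p 0.513) and 0.00234 for Hspa1a (adjusted p 0.549). Dnaja1 1459835_s_at (lower, limma p 0.0143) and Hspa1b 1427127_x_at (higher, limma p 0.0361) were also under 0.05 unadjusted. The share of all kept probe sets under 0.05 unadjusted in that fit is not given here. The genotype median of the 9 chaperones was 0.052 with quantile normalization, 0.031 with a common median, 0.090 with averaged probe sets and 0.011 to 0.085 with an array left out. The count separated upwards was 3 with quantile normalization, 2 with averaged probe sets and 2 to 6 with an array left out, and downwards 1, 1 and 0 to 3. Genotype signs turned for Hspa1b (-0.071 to 0.25 with an array left out), Hspa5 (-0.037 to 0.12, and -0.054 averaged), Hsph1 (-0.18 to 0.038, and 0.0075 averaged), Hsp90aa1 (-0.053 to 0.016, and 0.042 averaged) and Dnaja1 (-0.11 to 0.063).

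Between the numbers, calls counted 8326, with 4755 in the upper 40% (fewer probe sets tested), 5518 with quantile normalization and 916 to 10271 with an array left out (916 without Ezh2cKO replicate 2, 2122 without WT replicate 2). The median of the 9 was -0.0038 with quantile normalization, -0.32 with a common median, 0.086 averaged and -0.16 to -0.047 with an array left out. The count separated upwards was 3 with quantile normalization, 0 with a common median, 4 averaged and 1 to 2 with an array left out, and downwards 0 with quantile normalization, 1 averaged and 6 to 7 with an array left out. Signs turned for Hspa1a (-0.88 to 0.16 with an array left out), Hspa5 (-0.050 with a common median), Hspa8 (0.056 with quantile normalization, 0.35 averaged), Hsph1 (0.18 averaged), Hsp90aa1 (-0.16 with a common median, -0.011 to 0.054 with an array left out) and Dnajb1 (0.022 with quantile normalization, 0.12 averaged). Beyond what is said of scaling, of fewer probe sets and of genotype and number mixing with an array left out, the cause was not tested. The shorter heat shock element, added after the data were seen, was found in 5 genes and the longer one in 1.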

Other observations

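Some chaperone genes outside the 10 described passed limma between the replicate numbers while their genotypes overlapped. Cryab, the small heat shock protein alpha-B crystallin, had 1013 in Ezh2cKO and 918 in WT of number 2, against 627 in Ezh2cKO and 680 in WT of number 1 (log2 difference 0.55, limma adjusted p 0.0201). Cdc37l1, a relative of the kinase co-chaperone Cdc37, had 1041 in Ezh2cKO and 1102 in WT of number 2, against 504 in Ezh2cKO and 485 in WT of number 1 (log2 difference 1.09, limma adjusted p 0.00291). Trap1, the mitochondrial Hsp90, had 1545 in Ezh2cKO and 1699 in WT of number 2, against 2459 in Ezh2cKO and 2335 in WT of number 1 (log2 difference -0.56, limma adjusted p 0.0107). The first 2 rose and Trap1 fell in number 2. Serpinh1, the collagen chaperone Hsp47, had 9734 in Ezh2cKO and 9544 in WT of number 2, against 7499 in Ezh2cKO and 8068 in WT of number 1 (log2 difference 0.31, limma adjusted p 0.0217). Col1a1, a collagen made by fibroblasts, had 9581 in Ezh2cKO and 9130 in WT of number 2, against 5178 in Ezh2cKO and 7044 in WT of number 1 (log2 difference 0.63, limma adjusted p 0.020). Of the 5 fibroblast markers, Col1a1, Col1a2 and Col3a1 rose by limma, while Dcn (log2 difference -0.21, limma adjusted p 0.112) and Pdgfra (log2 difference -0.20, limma adjusted p 0.435) did not pass. The part of fibroblasts in the Serpinh1 value was not tested.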
